A study of Mus musculus with 12 samples.

Results

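The 10 genes described here belong to the hypoxia-inducible factor (HIF) pathway: the HIF subunits Hif1a, Epas1, Arnt and Arnt2, the prolyl hydroxylases Egln1, Egln2 and Egln3, the ubiquitin ligase subunit Vhl, and the target genes Vegfa and Bnip3. They were chosen by gene symbol, with the pull-down against input values of these libraries already known. Epas1, which lay on opposite sides of input under the Cre+ and Cre- labels, had been singled out on those values. The fold changes of the 10 genes between pull-down and input are therefore a description and carry no test here. All 10 were among the 14177 genes listed for the libraries labelled Cre-, and 8 of them, all but Egln3 and Vhl, were among the 9112 genes listed for the libraries labelled Cre+. The shorter list holds only genes with at least 5 counts in each of its libraries.

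Dorsal root ganglion (DRG) neurons, taken from all ganglia of male mice aged 3 to 6 months according to the labels (the study's methods give a younger age), were cleared of debris and glia on a 20% Percoll cushion. They were then cultured for 24 hours with serum. Every animal was homozygous for the RiboTag allele, Rpl22HA/HA, in which Cre recombinase attaches an HA epitope to the ribosomal protein Rpl22. Animals labelled Runx3-Cre+ carried Cre under Runx3, a transcription factor gene that marks proprioceptive neurons, and their Runx3-Cre- littermates without Cre were the background control. Ribosome-associated RNA was pulled down with an anti-HA antibody, and 10% of each lysate before the pull-down gave total RNA, the input. There were 3 pull-downs and 3 inputs for each label, 12 libraries in all, and the cells of 5 mice were pooled for each sample.

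HIF is a transcription factor made of an oxygen-regulated alpha subunit and a constant beta subunit. In the presence of oxygen, the Egln prolyl hydroxylases modify the alpha subunit, Vhl then binds it, and the subunit is degraded. When oxygen is low the alpha subunit accumulates, pairs with Arnt or Arnt2, and activates genes for glycolysis, blood vessel growth and mitochondrial turnover. This control acts on protein stability, and mRNA levels such as those measured here are not a readout of it. Epas1, also called HIF-2 alpha, is known for strong expression in endothelial cells, the cells that line blood vessels.

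HIF binds the core words ACGTG and GCGTG, and the promoters of the HIF pathway genes were searched for both on both strands, where they read CACGT and CACGC. In CACGTG the word ACGTG overlaps its own reverse complement and was counted on each strand. The sequences are from RefSeq (GRCm38.p6), which gave the 250 bases before the transcription start for 9 of the 10 genes, Epas1 being the one without an entry. Of these 9 genes, 7 had at least 1 match, in 8 of 11 windows, and 38.6% of all 32851 windows of this length held one. Those of Bnip3, Vegfa and Egln1 are printed, 5′ to 3′ on the strand of the gene with matches in capitals, because Bnip3 and Vegfa are the target genes among the 10 and Egln1 is a regulator that is also a textbook HIF target. Of the 2 Vegfa windows, the one upstream of the whole gene is printed.
Bnip3: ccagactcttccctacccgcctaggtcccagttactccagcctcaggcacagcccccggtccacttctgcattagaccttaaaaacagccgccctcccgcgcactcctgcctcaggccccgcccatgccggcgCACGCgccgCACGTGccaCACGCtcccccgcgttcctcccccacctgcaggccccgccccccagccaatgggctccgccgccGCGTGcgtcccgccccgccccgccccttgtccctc
Vegfa: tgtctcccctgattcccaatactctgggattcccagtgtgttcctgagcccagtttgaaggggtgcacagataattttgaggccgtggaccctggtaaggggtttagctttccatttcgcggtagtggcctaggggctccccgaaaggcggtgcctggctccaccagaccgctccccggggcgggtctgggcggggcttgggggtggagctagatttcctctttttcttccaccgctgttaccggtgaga
Egln1: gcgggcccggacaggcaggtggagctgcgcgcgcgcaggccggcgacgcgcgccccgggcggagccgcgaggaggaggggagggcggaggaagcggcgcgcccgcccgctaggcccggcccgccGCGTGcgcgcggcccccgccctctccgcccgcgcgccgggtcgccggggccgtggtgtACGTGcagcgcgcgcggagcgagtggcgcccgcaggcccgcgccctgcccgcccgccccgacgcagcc
The Bnip3 window, chr7:138909507-138909756 on the minus strand, held 5 matches, and the nearest began 35 bases before the start. The printed Vegfa window, chr17:46032378-46032627 on the minus strand, held none, which says only that these letters are not in it. The other Vegfa window, chr17:46025164-46025413, belongs to a start inside the gene and held 2 matches, 218 and 211 bases before that start, through which Vegfa counts among the 7 genes. The Egln1 window, chr8:124949255-124949504 on the minus strand, held 2 matches, 126 and 68 bases before the start. A match is a run of letters and not a measured binding site.

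Gene counts summed to between 8886308 and 18633365 per library. Levels below are counts scaled by edgeR's TMM factors to a library of 1000000 (CPM). Runx3, the driver of Cre, did not follow the labels in its mean level. It had 22.8, 2.07 and 11.1 CPM in the pull-downs labelled Cre+, against 2.39 to 5.55 in their inputs, and 20.8, 36.0 and 51.4 in the pull-downs labelled Cre-, against 1.90 to 4.70. It was enriched in the pull-downs labelled Cre- (log2 fold change 3.52, edgeR quasi-likelihood FDR 0.000236) and did not pass the test in those labelled Cre+ (1.55, FDR 0.309), and the difference between the labels did not pass either (log2 -1.93, standard error 0.996, edgeR FDR 0.302). Pvalb, a marker of proprioceptors, was listed only for the libraries labelled Cre-, with a log2 fold change of 2.98 (edgeR FDR 2.33e-05), whereas Ntrk3, the NT-3 receptor, was enriched under both labels, at 2.19 (FDR 0.0249) and 2.05 (FDR 4.71e-05). The other proprioceptor markers listed, Etv1 and Spp1, were enriched under the label Cre- (log2 2.69, edgeR FDR 5.93e-05, and 2.68, FDR 4.72e-05) and did not pass under the label Cre+ (0.24, FDR 0.754, and -0.95, FDR 0.22), and for both the difference between the labels passed (-2.41, FDR 0.0156, and -3.60, FDR 0.0026). The deposited names of the pull-down columns labelled Cre+ equal, apart from punctuation, the titles of the pull-downs labelled Cre-. Groups are for this reason named by their labels throughout, and every direction below holds for libraries so labelled. Replicate numbers are used below only to tell libraries apart, except where a replicate block is named.

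Of the 8 HIF pathway genes measured in the libraries labelled Cre+, 1 lay past both cutoffs above input, Epas1, and 0 lay below. The cutoffs were an FDR below 0.1 and a 2-fold change, and 4.72% of the 8947 genes tested passed them upward and 2.19% downward. These shares depend on the scaling and on single libraries: the 422 genes above and 196 below input became 249 and 266 with upper-quartile scaling and 192 and 699 with library size alone, and 7 and 0, 59 and 15, and 4 and 0 without input 1, 2 and 3. In 3 of the 8 genes, Epas1, Arnt and Vegfa, every pull-down was above every input, which was so for 15.5% of all genes, and in 0 of the 8 was every pull-down below every input, which was so for 17.9%. Of the 10 genes measured in the libraries labelled Cre-, 1 lay past both cutoffs below input, again Epas1, and 0 lay above, where 5.83% and 6.01% of the 11526 genes tested did so (672 below and 693 above, against 1238 and 429 with library size alone). There, every pull-down was above every input for Hif1a and Bnip3, as for 18.2% of all genes, and below for Epas1, Egln1 and Vegfa, as for 18.6%. Since the genes were chosen with these values known, nothing is read from the counts. The median log2 fold change of the HIF pathway genes was 0.43 in the libraries labelled Cre+, where that of all genes was 0.08, and -0.23 in the libraries labelled Cre-, where that of all genes was -0.04.

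**Figure D1:**
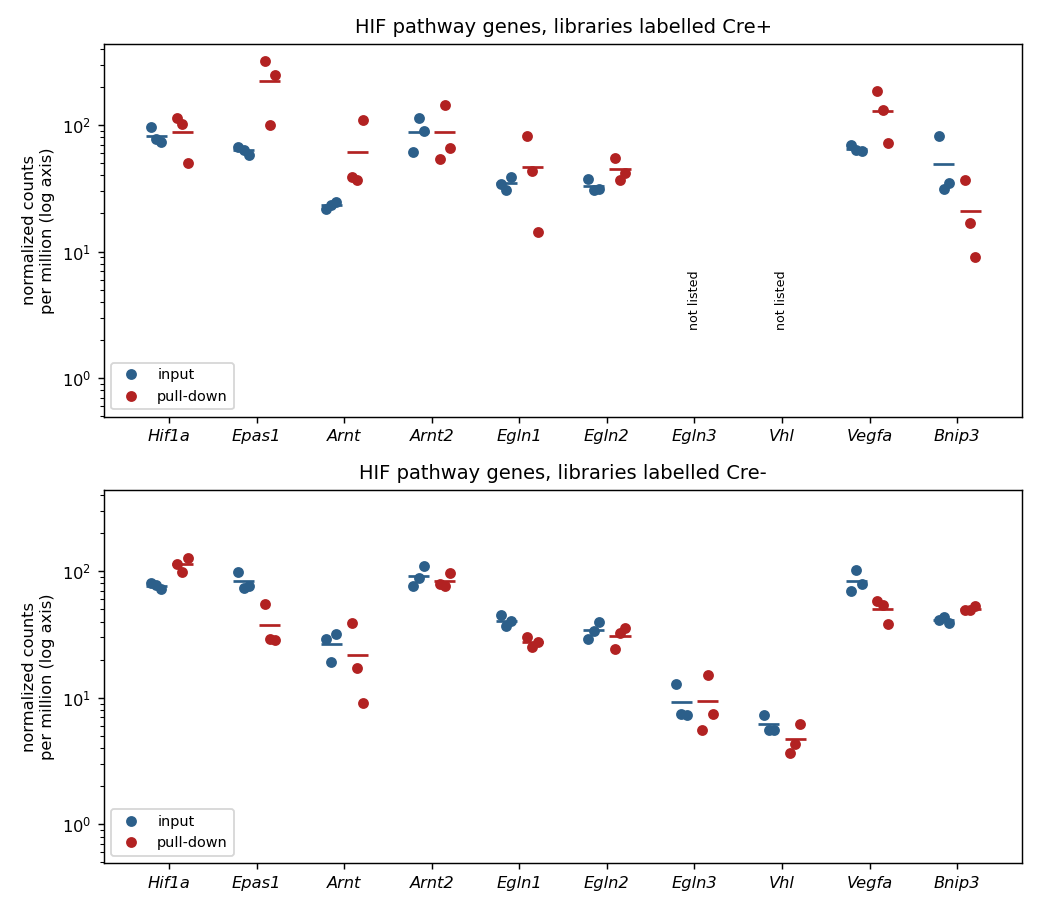
Normalized counts (CPM, log axis) of the HIF pathway genes in each library, with inputs in blue, pull-downs in red and a short line at the mean of each group of 3. Epas1 pull-downs lie above the inputs in the upper panel (libraries labelled Cre+, 100.1 to 321) and below them in the lower panel (libraries labelled Cre-, 28.4 to 54.8).

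Of the alpha subunits, Epas1 lay on opposite sides of input under the labels, whereas Hif1a did not lie below input under either. Epas1 (chr17:86753864-86833410, GRCm38, plus strand) had 321, 100.1 and 248 CPM in the 3 pull-downs labelled Cre+ and 67.4, 63.7 and 57.7 in their inputs. All 3 pull-downs were above all inputs, but they spread widely while the inputs were close together. The mean was 223 ± 113 in the pull-downs against 62.9 ± 4.89 in the inputs (SD, n = 3 each), a 3.55-fold difference (log2 1.83, standard error 0.43). Under the label Cre-, Epas1 had 54.8, 29.0 and 28.4 in the pull-downs and 99.5, 73.8 and 76.6 in the inputs. Here every pull-down was below every input, and the mean was 37.4 ± 15.1 against 83.3 ± 14.1 (SD, n = 3 each), a 2.22-fold difference in the other direction (log2 -1.15, standard error 0.27). Without any one of the 3 inputs, or without pull-down 3, Epas1 no longer passed both cutoffs in the libraries labelled Cre+, although its log2 fold change stayed between 1.76 and 1.88. In the libraries labelled Cre- it no longer did so without pull-down 2 (-1.0) or pull-down 3 (-0.98), where the change fell short of 2-fold, or with all 12 libraries in one fit (-1.18), where the FDR was not below 0.1.

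Hif1a (chr12:73901324-73947554, plus strand) encodes the widely expressed alpha subunit. It had 114.5, 101 and 49.9 CPM in the pull-downs labelled Cre+ and 96.4, 77.4 and 74.1 in the inputs. These groups overlapped, pull-down 3 being the lowest of the 6 libraries, and the log2 fold change was 0.10 with a standard error of 0.40. With the label Cre- it had 113.5, 98.6 and 127.7 in the pull-downs against 80.5, 77.3 and 71.8 in the inputs. Every pull-down was above every input there, by 1.48-fold (log2 0.57, standard error 0.17), which was short of the 2-fold limit. Of the exon bases of Hif1a, 8.1% overlap other annotated genes.

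The beta subunits, the partners that HIF alpha needs to bind DNA, showed values above input for Arnt in the libraries labelled Cre+ and overlapping groups otherwise. Arnt (chr3:95434367-95497240, plus strand) had 38.9, 36.7 and 109 CPM in the pull-downs labelled Cre+ and 21.8, 23.4 and 24.4 in the inputs. All pull-downs were above the inputs, and pull-down 3 was far above the others. The log2 fold change was 1.41 with a standard error of 0.55, short of the cutoffs. It passed them without pull-down 1 (1.69), with DESeq2 (1.47) and with all 12 libraries in one fit (1.42), whereas without pull-down 3 the log2 fold change was 0.73. With the label Cre- it had 38.8, 17.2 and 9.16 in the pull-downs against 29.4, 19.2 and 31.8 in the inputs, overlapping groups with a log2 fold change of -0.30 (standard error 0.45). Pull-down 1 was the highest of the 6 libraries, and without it the log2 fold change was -1.0 and Arnt passed both cutoffs.

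Arnt2 (chr7:84246274-84411741, minus strand) encodes the beta subunit typical of neurons. It had 54.2, 143 and 65.5 CPM in the pull-downs labelled Cre+ and 61.2, 114.3 and 90.0 in the inputs, a log2 fold change of -0.02 with a standard error of 0.46. With the label Cre- it had 79.3, 76.9 and 96.5 against 75.9, 88.0 and 110 (log2 -0.12, standard error 0.19). Pull-downs and inputs overlapped under both labels, and the fold changes were within their standard errors.

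The prolyl hydroxylases mark the alpha subunits for degradation, and none of the 3 lay past both cutoffs where it was measured. Egln1 (chr8:124908587-124949254, minus strand), the main oxygen sensor of the family, had 81.8, 43.5 and 14.2 CPM in the pull-downs labelled Cre+ and 34.4, 30.8 and 39.2 in the inputs. These pull-downs held both the highest and the lowest of the 6 values, and the log2 fold change was 0.42 with a standard error of 0.62. Egln1 in the libraries labelled Cre- had 30.4, 25.3 and 27.8 against 45.1, 37.0 and 40.1. Every pull-down was below every input, by 1.46-fold (log2 -0.55, standard error 0.22).

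Egln2 (chr7:27158658-27166802, minus strand) had 55.1, 36.9 and 42.1 CPM in the pull-downs labelled Cre+ and 37.5, 30.9 and 31.0 in the inputs, a log2 fold change of 0.43 with a standard error of 0.45. Under the label Cre- the values were 24.3, 32.6 and 35.5 against 29.2, 33.6 and 40.0 (log2 -0.16, standard error 0.24). The groups overlapped under both labels. Egln3 (chr12:54178981-54203874, minus strand), the hydroxylase best known as hypoxia-induced, was measured only in the libraries labelled Cre-, with 5.52, 15.2 and 7.44 in the pull-downs and 12.9, 7.51 and 7.28 in the inputs (log2 0.03, standard error 0.44). Its raw counts were 91 to 225 per library, and pull-down 2 stood above the rest.

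Vhl (chr6:113623994-113631634, plus strand), the subunit that recognises hydroxylated HIF alpha, was likewise measured only in the libraries labelled Cre-. It had 3.68, 4.34 and 6.18 CPM in the pull-downs and 7.35, 5.61 and 5.53 in the inputs, from 64 to 83 raw counts per library. The groups overlapped, and the log2 fold change was -0.38 with a standard error of 0.43.

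Of the target genes, Vegfa had pull-downs above input under the label Cre+ and below it under the label Cre-, and Bnip3 had pull-downs above input under the label Cre- and overlapping groups under the label Cre+. Vegfa (chr17:46016993-46032377, minus strand), the growth factor that drives blood vessel formation, had 185, 131 and 72.3 CPM in the pull-downs labelled Cre+ and 69.2, 63.6 and 62.8 in the inputs. All pull-downs were above the inputs, although pull-down 3 was only just above them, and the log2 fold change was 0.99 with a standard error of 0.40. Vegfa in the libraries labelled Cre- had 58.0, 54.5 and 38.1 against 69.9, 101.7 and 79.0. All pull-downs were below the inputs there, by 1.66-fold (log2 -0.73, standard error 0.22). Vegfa passed both cutoffs in the libraries labelled Cre+ without pull-down 3 (log2 1.30) and with DESeq2 (1.06).

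Bnip3 (chr7:138890836-138909506, minus strand), a mitochondrial protein that triggers removal of mitochondria, had 37.0, 16.7 and 9.12 CPM in the pull-downs labelled Cre+ and 81.2, 31.0 and 34.9 in the inputs. The groups overlapped through pull-down 1, and the log2 fold change was -1.23 with a standard error of 0.66. Bnip3 passed both cutoffs without that pull-down (-1.89) and with all 12 libraries in one fit (-1.22). Under the label Cre-, its pull-downs stood at 49.2, 49.2 and 53.1 and its inputs at 40.9, 43.6 and 38.9, so that all pull-downs were above the inputs, by 1.23-fold (log2 0.30, standard error 0.19). Of the exon bases of Bnip3, 22.3% overlap the gene model Gm45507 on the opposite strand, and the sources used here do not say whether counting used the strand.

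**Figure D2:**
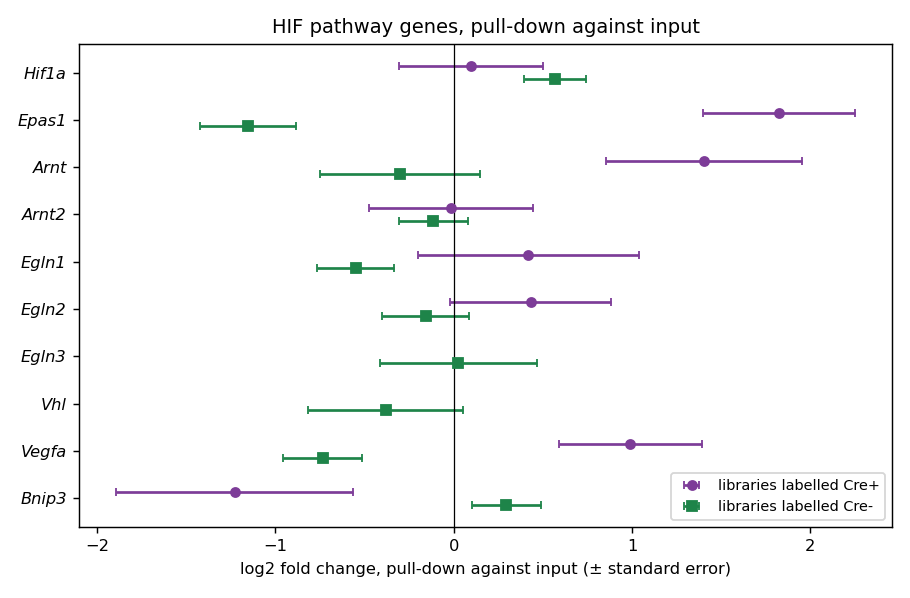
Log2 fold change of pull-down against input with its standard error for each HIF pathway gene, in libraries labelled Cre+ (purple circles) and Cre- (green squares), 3 pull-downs and 3 inputs each. Epas1 stands at 1.83 and -1.15 and Vegfa at 0.99 and -0.73, whereas Arnt2 lies near 0 under both labels.

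The difference in enrichment between the labels was fitted over all 12 libraries, for the 8954 genes listed under both labels with a mean FPKM above 1 over both. Among the 8 HIF pathway genes in it, 2 lay past both cutoffs, Epas1 and Vegfa, where 4.37% of all genes did so in either direction (209 more and 182 less enriched under the label Cre+, against 85 and 205 with upper-quartile scaling and 72 and 275 with library size alone). Epas1 was more enriched by a log2 difference of 3.01 (standard error 0.54) in the libraries labelled Cre+, and Vegfa by 1.76 (standard error 0.46). Arnt differed by 1.75 (standard error 0.76), Egln1 by 0.997 (0.66), Egln2 by 0.62 (0.46), Arnt2 by 0.14 (0.52), Hif1a by -0.43 (0.42) and Bnip3 by -1.50 (0.68), and none of these passed. The median difference over all genes was 0.13. Of the 7 endothelial markers tested, Tek had the largest difference (4.41, edgeR FDR 0.0797). It missed the FPKM filter under the label Cre- and was kept through its level under the label Cre+. Nothing is therefore read from its sign or call. The others lay on the same side as Epas1 and Vegfa, between 1.35 and 2.42, and none passed. Differences of all 6 tested markers of other sensory neurons were also above 0, from 0.06 to 1.69 (0 called by edgeR, 2 by DESeq2). So was that of mural Rgs5 (1.57, called by DESeq2 only). Glial and fibroblast markers lay on both sides. The part of these markers in the differences of Epas1 and Vegfa was not tested. The count of HIF pathway genes past the cutoffs was 1 without any single input of either label and without pull-down 2 or 3 labelled Cre-, and it was 4 without pull-down 1 labelled Cre+. Calls over all genes moved with it, from 209 more and 182 less enriched to 13 to 53 and 30 to 85 without an input, 43 and 58 or 16 and 35 without pull-down 2 or 3 labelled Cre-, and 635 and 600 without pull-down 1 labelled Cre+.

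Total RNA levels were compared between the labels in the inputs. The same inputs enter the fold changes known when the genes were chosen, so the values of the HIF pathway genes are again a description. Of the 8 genes, 0 lay past both cutoffs by edgeR, DESeq2 or the exact test, and 0 had an unadjusted p below 0.05. Among all 8954 genes, the edgeR quasi-likelihood test called 0 (0%), with 179 at an unadjusted p below 0.05, while DESeq2 called 1 and the exact test 1. Epas1 had 73.4 ± 6.30 CPM in the inputs labelled Cre+ and 92.2 ± 16.2 in those labelled Cre- (SD, n = 3 each), a log2 difference of -0.33 with a standard error of 0.19, when all 12 libraries were scaled together. Vegfa had 76.0 ± 4.53 and 92.4 ± 17.6 (log2 -0.28, standard error 0.19). The largest difference upward was that of Bnip3, at 0.33 with a standard error of 0.34, its inputs labelled Cre+ ranging from 36.4 to 95.0. A p that misses the threshold does not show that the levels are equal.

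Per kilobase of the RefSeq transcript, the inputs ranked the genes in similar ways under both labels. In the inputs labelled Cre-, Vegfa stood highest with 24.2 ± 4.75 CPM per kilobase (SD, n = 3), followed by Bnip3 with 23.4 ± 1.34, within the spread of Vegfa. Egln2 (16.3), Hif1a (16.2), Epas1 (15.1) and Arnt2 (14.8) came next, and these 4 neighbours lay within their spread of each other. Egln1 (11.3 ± 1.14), Arnt (6.20 ± 1.55), Egln3 (3.47 ± 1.20) and Vhl (2.21 ± 0.37) were lower. In the inputs labelled Cre+ the order was Bnip3 (27.9 ± 15.9), Vegfa (18.9 ± 1.02), Hif1a (17.5 ± 2.55), Egln2 (15.7 ± 1.81), Arnt2 (14.4 ± 4.32), Epas1 (11.4 ± 0.89), Egln1 (9.68 ± 1.17) and Arnt (5.37 ± 0.31). In the pull-downs labelled Cre+, Epas1 (40.4 ± 20.4) and Vegfa (37.6 ± 16.4) had the highest means and lay within their spread of each other, and under the label Cre- Epas1 stood at 6.78 ± 2.73, between Egln1 (7.73) and Arnt (5.02).

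Other HIF regulators were taken from a list of 14 genes, of which 13 were tested under each label. In the libraries labelled Cre+, 2 rose (4.72% of all genes did) and 0 fell (2.19%) by the edgeR quasi-likelihood test, where 2 of the lower genes had an unadjusted p below 0.05, DESeq2 called 2 lower and the edgeR exact test 1. Ep300, a coactivator that HIF recruits, had 392, 290 and 223 CPM in the pull-downs and 58.7, 108.5 and 98.6 in the inputs (log2 fold change 1.77, edgeR FDR 0.0433). Crebbp, its close relative, also rose, with 361 to 424 in the pull-downs against 108 to 211 in the inputs (log2 1.30, edgeR FDR 0.0626). In the libraries labelled Cre-, 0 rose past both cutoffs, also by DESeq2 and the exact test. The 2 higher genes at an unadjusted p below 0.05, Hif1an (log2 0.79, edgeR FDR 0.0159) and Crebbp (0.67, FDR 0.0367), passed the FDR cutoff. They were short of 2-fold, as was Tceb2 among the lower genes (-0.68, edgeR FDR 0.068). Past both cutoffs, 1 fell (5.83% of all genes did). This was Siah1a, a ubiquitin ligase that degrades prolyl hydroxylases, at 12.7, 9.28 and 11.8 against 34.9, 31.3 and 27.1 (log2 -1.46, edgeR FDR 0.00305). Under the label Cre+ its pull-downs were also all below the inputs, without passing (log2 -1.42, standard error 0.85, edgeR FDR 0.334). Its difference between the labels was 0.08. Between the labels, only Ep300 of the 13 differed past both cutoffs (log2 difference 1.44, edgeR FDR 0.085), as did 4.37% of all genes. Median log2 fold changes of the list were -0.14 and -0.05 under the labels Cre+ and Cre-, where those of all genes were 0.08 and -0.04.

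Hypoxia response genes, apart from Vegfa and Bnip3, were described from a list of 38. In the libraries labelled Cre+, 31 were tested, and 4 fell by the edgeR quasi-likelihood test, as did 2.19% of all genes. These were Aldoa, Tpi1, Pkm and Ldha, all enzymes of glycolysis and lactate formation. None rose: 0 passed by edgeR, DESeq2 or the exact test, and 0 had an unadjusted p below 0.05. Under the label Cre-, 33 were tested, and 2 rose, the glycolytic genes Aldoc and Pkm, and 3 fell, Ero1l, Ndrg1 and Loxl2, where 6.01% of all genes rose and 5.83% fell. The median log2 fold change of the list was -0.55 and 0.13 under the labels Cre+ and Cre-, where all genes had 0.08 and -0.04. When any one of the inputs labelled Cre+ was left out, the count there was 0 of 31, in fits that over all genes called 4 to 59 higher and 0 to 15 lower, in place of 422 and 196. The log2 fold changes stayed between -1.36 and -1.13 for Aldoa, -2.02 and -1.88 for Tpi1, -1.20 and -1.02 for Pkm, and -1.50 and -1.07 for Ldha.

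Pkm, the last enzyme of glycolysis, lay on opposite sides of input under the labels, but in the direction opposite to Epas1. It had 146, 195 and 187 CPM in the pull-downs labelled Cre+ against 446, 359 and 353 in the inputs (log2 -1.13, edgeR FDR 0.0609). Under the label Cre- the values were 719, 766 and 804 against 347, 367 and 335 (log2 1.13, edgeR FDR 0.000237). Pkm no longer passed both cutoffs under the label Cre+ without pull-down 1 (-0.98) or pull-down 3 (-1.15, edgeR FDR 0.101), or under the label Cre- with library size alone (0.89). Pull-downs and inputs did not overlap under either label. Aldoc rose in the libraries labelled Cre-, with 238 to 355 in the pull-downs against 44.7 to 71.3 in the inputs (log2 2.33, edgeR FDR 4.72e-05). Under the label Cre+ the log2 fold change was -1.97 for Tpi1 (edgeR FDR 0.0607), -1.34 for Ldha (FDR 0.0729, not passed without pull-down 3, at -1.41 and FDR 0.111) and -1.26 for Aldoa (FDR 0.0401).

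The difference between the labels passed both cutoffs for 5 of the 31 hypoxia response genes, against 4.37% of all genes, all less enriched in the libraries labelled Cre+. These were Aldoc (log2 difference -3.43, edgeR FDR 0.00738), Tpi1 (-2.51, FDR 0.00971), Pkm (-2.22, FDR 0.00123), Aldoa (-1.61, FDR 0.00856) and Ldha (-1.44, FDR 0.0896). All 5 are enzymes of glycolysis and lactate formation, several with processed pseudogenes, and since the authors counted uniquely mapped reads their levels are uncertain. Markers of neurons were also less enriched under the label Cre+, with differences past both cutoffs for Uchl1 (-1.95, edgeR FDR 0.0204) and Snap25 (-1.76, FDR 0.0156) of 10 pan-neuronal markers and for Etv1 and Spp1 of 4 proprioceptor markers, whereas Rbfox3 was more enriched there (1.02, FDR 0.0689), and their part in the glycolytic genes' differences was not tested. The genes that fell in the libraries labelled Cre- have other roles. Ero1l, which forms disulfide bonds in the endoplasmic reticulum, had a log2 fold change of -1.14 (edgeR FDR 0.000506), Ndrg1, a stress-induced gene needed by Schwann cells, one of -1.69 (FDR 0.00749), and Loxl2, which cross-links collagen, one of -1.87 (FDR 0.0125), not passed with all 12 libraries in one fit (-1.89, FDR 0.288). Summed glial markers were also lower in each of these pull-downs than in each of their inputs, most of the sum in the inputs being Pmp22, whereas S100b of the same list was higher in each. Of the fibroblast markers, Col1a1 fell there (log2 -1.34, edgeR FDR 0.0347). Their part in these changes was not tested.

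**Figure D3:**
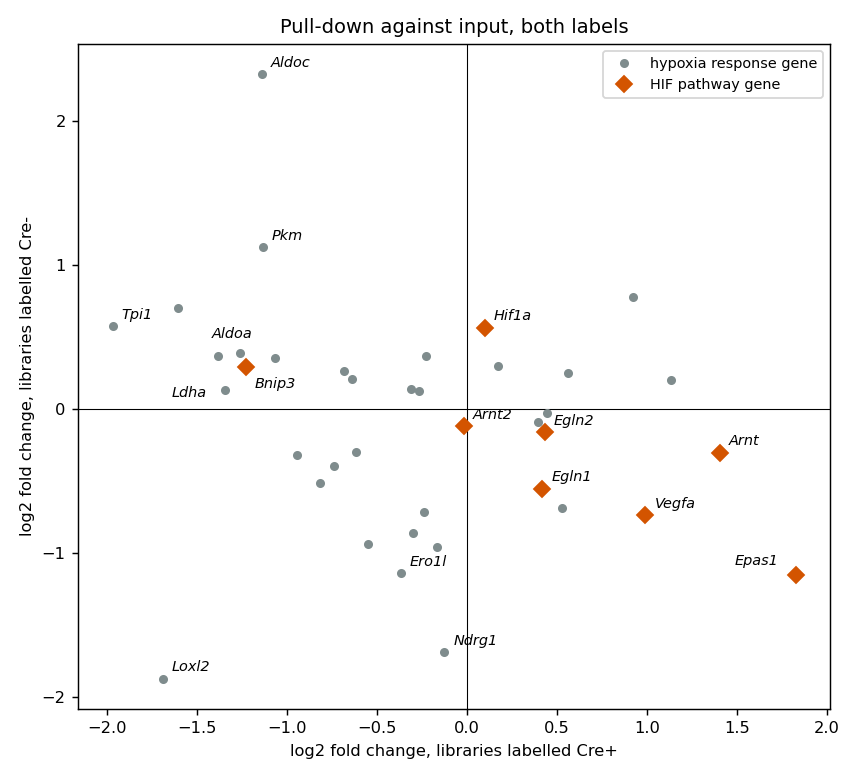
Log2 fold change of pull-down against input in libraries labelled Cre+ (horizontal) and Cre- (vertical) for the 8 HIF pathway genes (orange diamonds) and 31 hypoxia response genes (grey circles) tested in both, with names for the former and for those past both cutoffs under at least 1 label. Epas1 (1.83, -1.15) and Vegfa lie at the lower right, whereas Pkm (-1.13, 1.13) and Aldoc lie at the upper left.

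Since Epas1 is known from endothelial cells, markers of these cells were set beside it in each library. Of 10 markers, 7 were listed for the libraries labelled Cre+, and 2 of these rose, where 4.72% of all genes did. They were the receptors Tek (log2 3.98, edgeR FDR 0.0856) and Flt1 (2.83, FDR 0.0951). DESeq2 and the exact test each called 3 of the 7 higher. Tek had 46.1, 2.20 and 11.4 CPM in the pull-downs and 0.99 to 1.75 in the inputs. Since it missed the FPKM filter under the label Cre-, where it was not tested, nothing is read from its call. The summed level of the 7 listed markers was 821, 131.5 and 201 CPM in the pull-downs and 105 to 122 in the inputs. Pull-down 1 had the highest sum, with Pecam1 at 255 against 20.2 and 17.8 in the other pull-downs, and it also had the highest Epas1 level. Without it, Epas1 had a log2 fold change of 1.51 and still passed both cutoffs. Of the 10 markers, 8 were listed for the libraries labelled Cre-, 7 were tested, and 0 passed by edgeR, DESeq2 or the exact test, with 0 at an unadjusted p below 0.05. The sum of the 8 listed markers was 198, 28.2 and 34.0 in the pull-downs and 103 to 151 in the inputs. Pull-down 1 was again the highest in both the markers and Epas1, and without it the log2 fold change of Epas1 was -1.52. This rank was not particular to endothelial markers. Pull-down 1 of each label also had the highest mural, fibroblast and macrophage sums of its group. Under the label Cre- it had the highest glial (2005) and other sensory neuron (817) sums as well, but the lowest pan-neuronal sum (45410). Under the label Cre+ its glial (1850) and pan-neuronal (20670) sums were the lowest. Cldn5 and Ly6c1 were listed under neither label. The part of endothelial RNA in the Epas1 values was not tested. In these pooled cultures fewer cells of a type and less RNA per cell cannot be told apart.

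**Figure D4:**
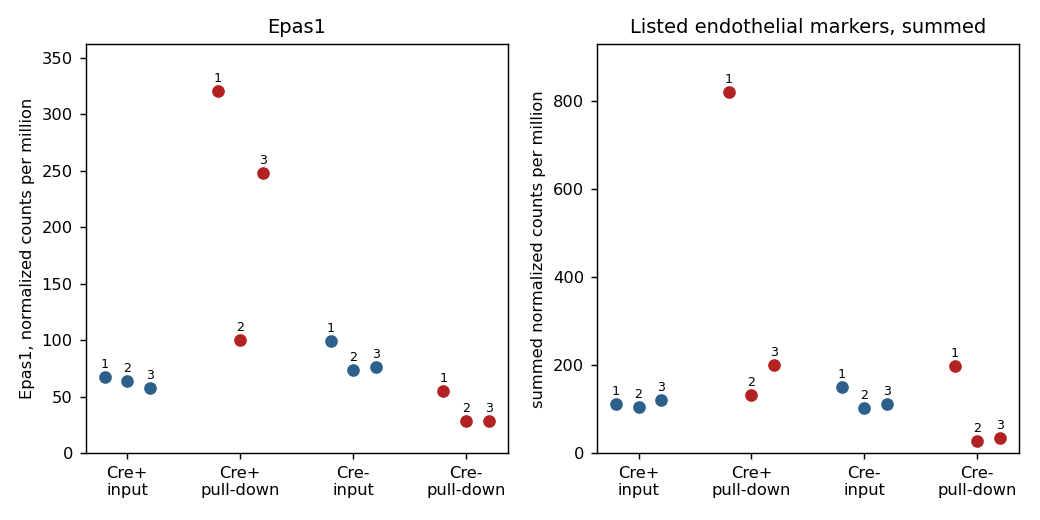
Normalized counts (CPM) of Epas1 (left) and the summed listed endothelial markers (right; 7 genes for Cre+ and 8 for Cre-) in each library, labelled by replicate number, with inputs in blue and pull-downs in red. In both pull-down groups library 1 is the highest on both axes, at 321 and 54.8 for Epas1 and at 821 and 198 for the markers. Library 1 of each pull-down group also had the highest mural, fibroblast and macrophage sums (not shown).

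Markers of other cells that the culture could hold were summed in the same way, as were markers of neurons at large. Summed glial markers were lower in every pull-down than in every input, at 1850 to 2696 against 2897 to 4041 in the libraries labelled Cre+ (6 of 11 listed, 0 called by edgeR, DESeq2 or the exact test, 2 at an unadjusted p below 0.05 by edgeR) and 1642 to 2005 against 3262 to 4659 in those labelled Cre- (10 listed, 2 called lower). Most of the glial sum in the inputs was Pmp22, with 707 to 1159 in the pull-downs labelled Cre- against 2400 to 3848 in the inputs. S100b went the other way there, with 447 to 571 against 288 to 370 (log2 0.69, edgeR FDR 0.0114). Pan-neuronal markers, all 10 listed, summed to 45410 to 53090 in the pull-downs labelled Cre- against 23010 to 27870 in the inputs (2 called higher), and to 20670 to 22900 against 19930 to 26800 under the label Cre+ (2 called lower). Snap25, Nefl and Nefm made up most of these sums, and Rbfox3 was lower in every pull-down labelled Cre-, with 166 to 187 against 274 to 311 (log2 -0.76, edgeR FDR 0.0045). Markers of other sensory neurons summed to 234 to 817 in the pull-downs labelled Cre- against 1480 to 1599 in the inputs (7 of 7 listed, 3 called lower), the other way from the pan-neuronal sum, and to 995 to 1490 against 1433 to 2129 under the label Cre+ (6 listed, 1 called lower). Mural markers summed to 50.0 to 90.2 in the pull-downs labelled Cre+ against 52.6 to 72.9 (3 of 7 listed, 0 called), and to 18.1 to 70.9 against 68.5 to 86.2 under the label Cre- (6 listed), where Rgs5 fell (log2 -1.41, edgeR FDR 0.016). Fibroblast markers summed to 66.3 to 76.5 against 61.3 to 96.2 under the label Cre+ (4 of 6 listed, 0 called), and to 25.1 to 88.6 against 77.6 to 95.6 under the label Cre- (6 listed, 1 called lower, Col1a1). Macrophage markers summed to 4.81 to 112 against 25.8 to 68.8 under the label Cre+ (2 of 7 listed) and to 52.7 to 75.6 against 57.0 to 127.3 under the label Cre- (5 listed), with 0 called under either. Their part in the levels of the HIF pathway genes was not tested.

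The 5 genes most like Epas1, by Pearson correlation of log2 CPM over the 12 libraries among 8954 genes, were 9330188P03Rik (r = 0.96), Cdk15 (0.957), Ick (0.941), Cyyr1 (0.939) and C77080 (0.936). The libraries share the same label and fraction structure, and the values are a description. Cdk15 had mean levels of 68.7 CPM in the pull-downs labelled Cre+, 21.2 in their inputs, 12.3 in the pull-downs labelled Cre- and 23.5 in their inputs, the same order of pull-down and input as Epas1. None of the other HIF pathway genes was among these 5.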

How the data were processed

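RiboTag pull-down and input RNA of cultured mouse DRG neurons was sequenced in 12 libraries. The authors aligned reads to mm10 with STAR, counted fragments per gene with HTSeq on uniquely mapped reads, and deposited these raw counts for each genotype. The deposited tables also give the authors' mean FPKM, used here only as a filter (above 1). A total of 18 other columns of sample values, over both genotypes together, were not used. The authors' log2 fold changes, p-values and FDR were not used. CASAVA 1.8.2 is named in the submitters' processing notes. The HIF pathway genes, lists and tests were chosen with earlier results of these data known. The pull-down columns labelled Cre+ carry names that equal, apart from punctuation, the titles of the pull-downs labelled Cre-. They were assigned as a group, because the descriptions of the samples labelled Cre+ name their table.

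Counts were analysed in R 4.3.3 with edgeR 4.0.16: TMM normalization, robust quasi-likelihood fit, Benjamini-Hochberg FDR over all genes tested, cutoffs of FDR below 0.1 and 2-fold. The standard error is the log2 fold change divided by the square root of F. CPM are counts scaled to 1000000 within each table unless stated. P-values measure the spread between pooled samples. List genes were named when past both cutoffs with pull-downs and inputs not overlapping, up to 6 per direction and comparison by FDR, and Epas1 neighbours by correlation. Gene positions are from GENCODE M21 (GRCm38). The analysis was tested on simulated data. Alternatives included DESeq2 1.42.0, other scalings and filters, and each library left out.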

Additional observations from a re-analysis of the deposited data

Results flagged for a closer look

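Enrichment in the pull-down differed between the labels past both cutoffs, by the edgeR interaction of fraction and label over all 12 libraries, for 8 genes of the HIF pathway, regulator and hypoxia response lists. The HIF pathway genes Epas1 (log2 difference 3.01) and Vegfa (1.76) were more enriched in the libraries labelled Cre+, with every pull-down above every input there and below every input under the label Cre-. Both were chosen with such values known, and their differences are descriptions. The coactivator gene Ep300 (1.44) was also more enriched in the libraries labelled Cre+. The glycolytic genes Aldoc (-3.43), Tpi1 (-2.51), Pkm (-2.22), Aldoa (-1.61) and Ldha (-1.44) were less enriched there. Of the 7 endothelial markers tested, Tek (4.41, edgeR FDR 0.0797) missed the FPKM filter under the label Cre-. Nothing is read from its sign or call. The others had differences above 0, between 1.35 and 2.42, and none passed. Differences of all 6 tested markers of other sensory neurons were also above 0, from 0.06 to 1.69 (0 called by edgeR, 2 by DESeq2). The part of these markers in the differences of Epas1 and Vegfa was not tested. Runx3 passed the test in the pull-downs labelled Cre- (log2 3.52) and not in those labelled Cre+ (1.55), the difference between the labels did not pass (-1.93, edgeR FDR 0.302). For the proprioceptor markers Etv1 (-2.41, edgeR FDR 0.0156) and Spp1 (-3.60, FDR 0.0026) it did pass, with more enrichment under the label Cre-, and whether any of these differences follows genotype was not tested.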

How the results depend on the processing

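Epas1, the one HIF pathway gene past both cutoffs in each comparison of pull-down with input, kept its sign under the alternatives run. Its log2 fold change stayed between 1.35 and 2.20 over 13 alternatives in the libraries labelled Cre+ and between -1.52 and -0.98 over 14 in those labelled Cre-. Counts moved more. In the libraries labelled Cre+, 1 HIF pathway gene passed, against 3 with DESeq2, 3 with all 12 libraries in one fit, 0 at an FDR below 0.05, and 0 to 3 with 1 library left out, and 4 hypoxia response genes passed, against 7 in the fit of all 12 libraries, 1 at an FDR below 0.05, and 0 to 5 with 1 library left out. In the libraries labelled Cre-, 1 HIF pathway gene passed, against 0 in the fit of all 12 libraries, 3 with no fold limit, and 0 to 2 with 1 library left out, and 5 hypoxia response genes passed, against 9 with no fold limit and 5 to 9 with 1 library left out, 9 being without pull-down 1. For the difference between labels, 2 HIF pathway genes passed, against 1 with upper-quartile scaling, 1 with library size alone, 1 at an FDR below 0.05, and 1 to 4 with 1 library left out. There 5 hypoxia response genes passed, against 8 with DESeq2 and 4 to 8 with 1 library left out, 8 being without any 1 of the pull-downs labelled Cre+. Calls over all genes moved too. Under the label Cre+, 422 higher and 196 lower became 1103 and 568 with DESeq2, 1250 and 948 in the fit of all 12 libraries, 139 and 26 at an FDR below 0.05, and 4 to 803 and 0 to 540 with 1 library left out. Under the label Cre-, 693 and 672 became 270 and 175 in the fit of all 12 libraries, 1502 and 1284 with no fold limit, and 575 to 817 and 525 to 1060 with 1 library left out. For the difference, 209 and 182 became 612 and 428 with DESeq2, 85 and 205 with upper-quartile scaling, 72 and 275 with library size alone, 35 and 60 at an FDR below 0.05, and 13 to 713 and 30 to 694 with 1 library left out. The cause of these changes was not tested. Scaling by library size alone moved the median log2 fold change of all genes from 0.08 to -0.36 (Cre+) and from -0.04 to -0.27 (Cre-), and Arnt2, Egln1, Egln2 and Hif1a in the libraries labelled Cre+, and Arnt, Arnt2, Egln2 and Egln3 in those labelled Cre-, changed sign under at least 1 alternative.

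The replicate block was fitted for the libraries labelled Cre-. With it 1 HIF pathway gene and 7 hypoxia response genes passed, and over all genes 704 rose and 792 fell, against 693 and 672 without. Deviations of same-numbered pull-downs and inputs correlated at 0.067, 0.028 and 0.124, and those of differently numbered ones at -0.110 to 0.025. Each pull-down labelled Cre- correlated most with the input of its own number, though weakly. Whether the numbers mark pairs was not tested, and the main fit did not use them. The block was not fitted for the libraries labelled Cre+, because the numbers in their pull-down column names could not be tied to samples. Among the HIF pathway genes, Vhl had 64 to 83 raw counts per library.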
